A study of Danio rerio with 18 samples.

Results

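Zebrafish embryos that had been injected with a mock oligonucleotide were compared at 24 and 7 hours post fertilization (hpf), to describe the gene families and functions that were gained and lost between the gastrula and the embryo with forming organs. The comparison rests on 6 of the 18 arrays of the study, chosen by the injection and age in their labels: 3 arrays of mock embryos of 24 hpf and 3 of mock embryos of 7 hpf. All of these embryos were wild type, had received a mock locked nucleic acid (LNA) at the 1 to 2 cell stage, were kept at 30 C and were freed from the chorion by hand before RNA extraction in Trizol. Each array holds RNA of whole embryos, labelled from 6 ug of total RNA, so that a tissue with fewer cells and a tissue with less RNA per cell cannot be told apart in any result below. The study also holds 3 arrays each of anti-mir-34 LNA embryos of 24, 7 and 1 hpf and of mock LNA embryos of 1 hpf. These served for the age step after knockdown of the microRNA mir-34, given last, and for the level of each gene before the embryo's own transcription. The number of embryos pooled for each RNA sample is not among the labels, and no uninjected embryos are among these groups.

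A fish embryo starts on messenger RNAs that the mother stored in the egg. From before gastrulation on, the embryo's own genome is transcribed and the stored messages are cleared. Signals such as Nodal, BMP, FGF and Wnt then set up endoderm, mesoderm and ectoderm and the body axes. Over the following hours the mesoderm is cut into somites that become muscle, the neural tube is divided into regions and makes its first neurons, and the heart, blood, eyes and pigment cells appear.

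The labelled ages were checked against markers of each age. Values are log2 signals as deposited, differences are 24 minus 7 hpf on that scale, and "rose" and "fell" are used for a limma adjusted p of at most 0.05. Of 13 gastrula markers 11 fell at 24 hpf and 2 did not pass, and all 12 markers of the one-day embryo that are on the array rose. For comparison, 20.5% of the 8793 genes on the array rose and 28.4% fell, which makes 48.9% called in either direction. The 2 gastrula markers that did not pass were the brachyury homologue tbxta, which acts in notochord and tail (4.93 at 24 hpf and 6.37 at 7 hpf, adjusted p = 0.0806), and the mix-type homeobox gene mixl1 (1.49 and 2.45 at these ages, adjusted p = 0.298). The endoderm factor sox32 stood at 2.03, -0.86 and 1.88 on the 24 hpf arrays, against 7.10, 6.03 and 8.09 on the 7 hpf arrays. The troponin gene tnnt3b of fast muscle stood at 9.14, 9.72 and 9.73 on the 24 hpf arrays, against 3.18, 1.66 and 3.01 on the 7 hpf arrays.

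The arrays of an age were alike, with mean correlations of an array with the other 2 of its group between 0.91 and 0.93, and the median of an array was 3.67 or 3.68 throughout. A pair of arrays stood apart within their age. Replicate 2 of 24 hpf had higher levels of egg transcripts: the egg coat and oocyte list had a median of 1.89, 3.40 and 1.39 on the 24 hpf arrays, against 6.45, 6.70 and 5.86 on the 7 hpf arrays. Replicate 2 of 7 hpf had lower levels of gastrula genes: the Nodal and endoderm list had a median of 2.03, 2.51 and 1.93 on the 24 hpf arrays, against 5.59, 4.59 and 5.90 on the 7 hpf arrays. The difference between the 3' and 5' control probe sets of GAPDH, a sign of RNA integrity and labelling, also moved with age. It was 1.19, 1.72 and 0.99 at 24 hpf, against -0.30, 0.70 and -0.76 at 7 hpf. For the muscle actin control acta1 it was 3.36, 3.25 and 3.36 at 24 hpf, against -1.77, -0.64 and -0.69 at 7 hpf. Genes of the muscle thin filament were dim at 7 hpf, with medians of 1.33, 1.66 and 1.43 on these arrays. Whether the acta1 values of that age were read from background, where they would say little about RNA integrity, was not tested. The part of both controls in the results was not tested. Counts without both replicates 2 are given where the count in a group's main direction differs by more than 1.5 times. At low levels signal merges into background, so the size of a large difference is only approximate there. Beside some differences the value with 16 added to the signals is given, which is smaller. Group medians are given without it. Most medians of tissue, egg and patterning groups shrank with 16 added, so their sizes are only approximate. They went from 1.64 to 0.28 for synaptic genes, from 3.37 to 0.79 for Hox genes and from -4.06 to -1.30 for germ plasm genes. Other medians went from 3.93 to 1.47 for axon genes, from 3.88 to 1.78 for collagens and from 3.33 to 0.86 for basal epidermis genes. The median of egg genes went from -4.27 to -2.27. For complex I genes the median went from 1.57 to 1.34. For cav1, foxn4, her4.5, isl1a, npm1a, six7, sox2 and ttn.2, named below as called, at least 1 dimmer probe set of the gene did not pass.

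Over all probe sets, 3026 of 15502 rose (19.5%) and 3636 fell (23.5%), and 6662 passed in either direction (43%). Among genes, each read from its brightest probe set, 1802 rose and 2499 fell, and the median difference over all genes was -0.20. More genes fell than rose, but large changes were more often rises. Rises of at least 8 were seen for 31 genes and falls of at least 8 for 3 genes, and 328 genes rose and 227 fell by at least 4. A total of 279 genes rose to above the 75th percentile of the array at 24 hpf with a 7 hpf level below the array median, and 216 genes fell the other way.

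The genes that rose and those that fell also differed in their level at 1 hpf, before the embryo's own transcription. Of the 1802 genes that rose, 1023 (56.8%) had a 1 hpf level below the array median, and of the 2499 genes that fell, 260 (10.4%) did, against 3298 (37.5%) of all genes. A fall needs a signal at 7 hpf, so genes dim at every age count among all genes but can hardly be among those that fell. How far this selection sets the contrast was not tested. Of the genes that fell, 45 were below the array median at 1 hpf and above the 75th percentile at 7 hpf.

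**Figure D1:**
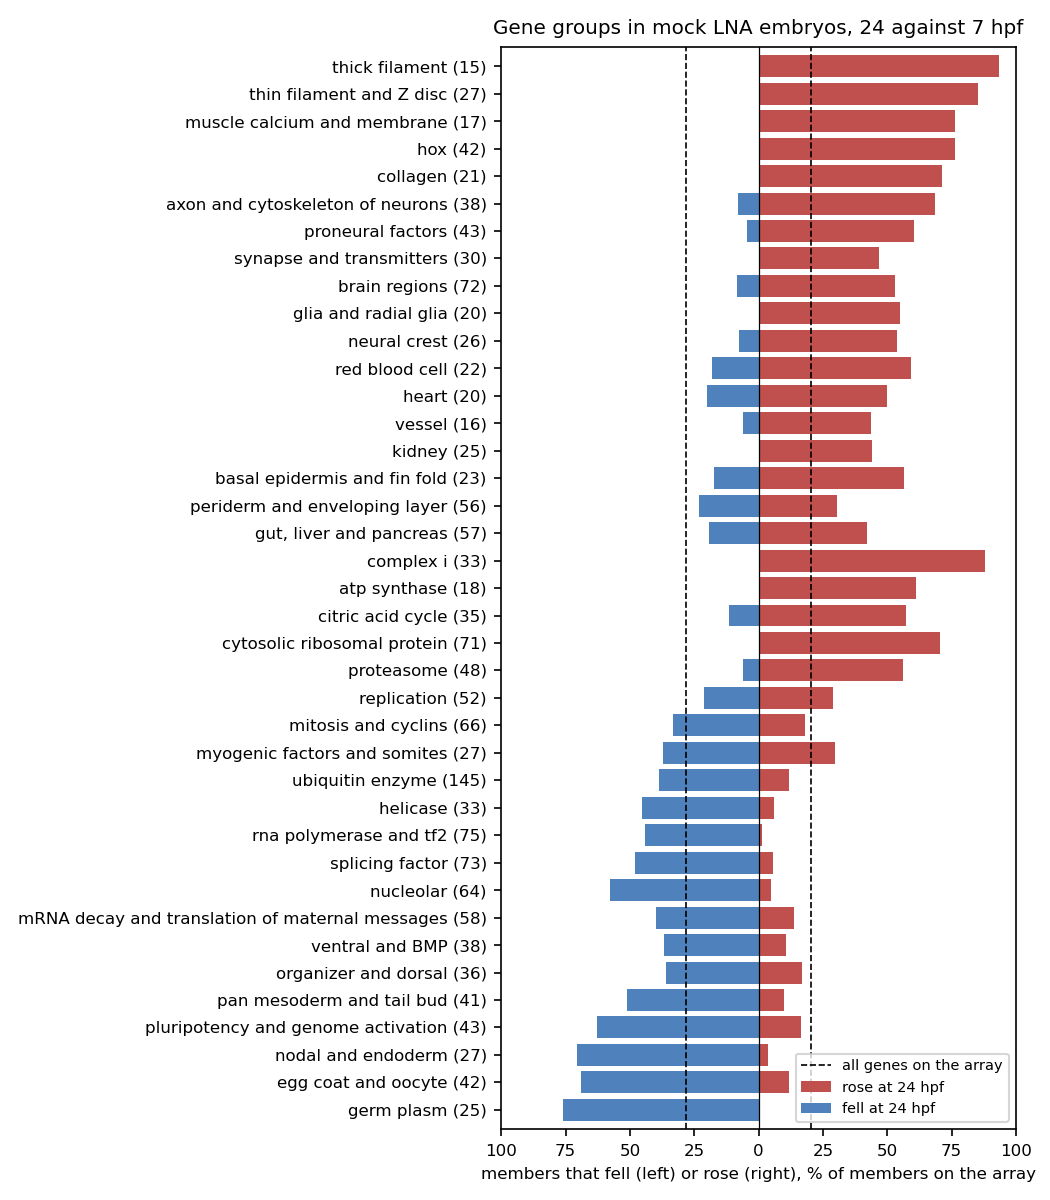
Share of each gene group that rose (right, red) or fell (left, blue) in mock LNA embryos at 24 against 7 hpf, in percent of the members on the array, whose number is in brackets. Dashed lines mark all genes (20.5% rose, 28.4% fell). Muscle, Hox, collagen and neuron groups and complex I extend to the right, and germ plasm, egg, Nodal and nucleolar groups to the left.

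Skeletal muscle genes were prominent among the largest rises. Of 15 genes of the thick filament 14 rose and none fell, with a median difference of 7.39. Of 27 genes of the thin filament and the Z disc 23 rose and none fell, with a median of 6.30, and of 17 genes of calcium handling and the muscle membrane 13 rose and none fell, with a median of 4.78. The myosin light chain gene mylpfa of fast fibres stood at 10.20, 10.46 and 10.48 on the 24 hpf arrays, against 1.53, 0.08 and -0.06 on the 7 hpf arrays. It rose by 9.86 ± 0.75 (SE, 3 arrays per age; limma adjusted p = 4.15e-09), or by 6.26 with 16 added. The myosin heavy chain gene smyhc1, which marks slow fibres, rose by 9.46 ± 1.18 (5.16 with 16 added), with each 24 hpf array at 9.17 or above. Genes of both fibre types were thus high at 24 hpf.

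The other parts of the sarcomere showed the same separation of the ages. On the thin filament, the calcium sensor tnnc2.2 rose by 8.74 ± 0.56, the troponin T gene tnnt3a by 7.21 ± 0.50 and the tropomyosin gene tpma by 7.68 ± 0.48. The Z disc gene actn3b, an alpha-actinin, stood at 8.31, 8.74 and 8.59 at 24 hpf, against 2.28, 1.71 and 2.73 at 7 hpf. Desmin (desma), the intermediate filament of muscle, was at 9.15, 9.12 and 9.13 at 24 hpf, against 1.87, 2.29 and 0.32 at 7 hpf. The giant protein titin (ttn.2) rose by 6.84, with 8.81 at 24 hpf and 1.97 at 7 hpf. Proteins that fold myosin came with it: the chaperone hsp90aa1.1 was at 8.87, 8.70 and 8.83 at 24 hpf, against 2.38, 2.71 and 2.33 at 7 hpf. Its partner unc45b was at 7.19, 7.13 and 7.15 at 24 hpf, against 5.41, 3.89 and 5.22 at 7 hpf, so that it rose by 2.32 ± 0.33 and was already above the array median at 7 hpf.

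Genes of the nerve-muscle contact and of calcium handling rose as well. The acetylcholine receptor subunit chrna1 was at 6.44, 6.39 and 6.61 at 24 hpf, against 1.32, 0.73 and 1.39 at 7 hpf, and chrne rose by 6.34 ± 0.79. The calcium buffer parvalbumin pvalb1 was at 8.65, 9.43 and 9.54 at 24 hpf, against -0.78, 0.72 and -0.47 at 7 hpf. The calcium channel subunit cacng1a rose by 6.62, with 5.97 at 24 hpf and -0.66 at 7 hpf.

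Enzymes that supply energy to muscle formed part of the same shift. The adenylate kinase gene ak1 stood at 8.90, 9.15 and 8.95 on the 24 hpf arrays, against a highest array of -0.55 at 7 hpf, and rose by 9.90 ± 0.45 (limma adjusted p = 2.84e-12). Muscle creatine kinase ckmb was at 10.15, 10.62 and 10.42 at 24 hpf, against 1.61, 1.89 and 1.97 at 7 hpf. The aldolase gene aldoab rose by 8.24 ± 0.38 and the phosphoglycerate mutase gene pgam2 by 7.43 ± 0.63. Of 43 genes of glycolysis and phosphate transfer, 20 rose and 7 fell, with a median of 1.10. Those that fell included tpi1a, a triosephosphate isomerase, at 3.37, 2.06 and 3.14 at 24 hpf, against 7.08, 7.70 and 6.63 at 7 hpf. The second aldolase gene, aldoaa, was high at both ages (9.30 at 24 hpf and 9.10 at 7 hpf, adjusted p = 0.579).

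Among the transcription factors upstream of muscle, the list was divided. Of 27 myogenic and somite genes 8 rose and 10 fell, with a median of 0.15. The late myogenic factor myog was at 6.37, 5.77 and 5.84 at 24 hpf, against -0.76, 1.26 and 1.57 at 7 hpf. The MEF2 factor mef2ca rose by 4.86 and the eyes absent homologue eya1 by 4.57. The early factors myod1 and myf5 did not pass. For myod1 the levels were 3.46 at 24 hpf and 1.70 at 7 hpf (adjusted p = 0.104), and for myf5 they were 2.56 and 3.77 (adjusted p = 0.23). The genes that fell were mostly those of unsegmented mesoderm and its clock: msgn1, the mesogenin factor of the presomitic mesoderm, was at 3.15, 1.23 and 2.03 at 24 hpf, against 8.29, 7.32 and 8.59 at 7 hpf. The T-box gene tbx16 fell to 2.23, against 7.23 at 7 hpf, and her7, a repressor of the segmentation clock, fell by 4.78 ± 0.69 (1.08 with 16 added).

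**Figure D2:**
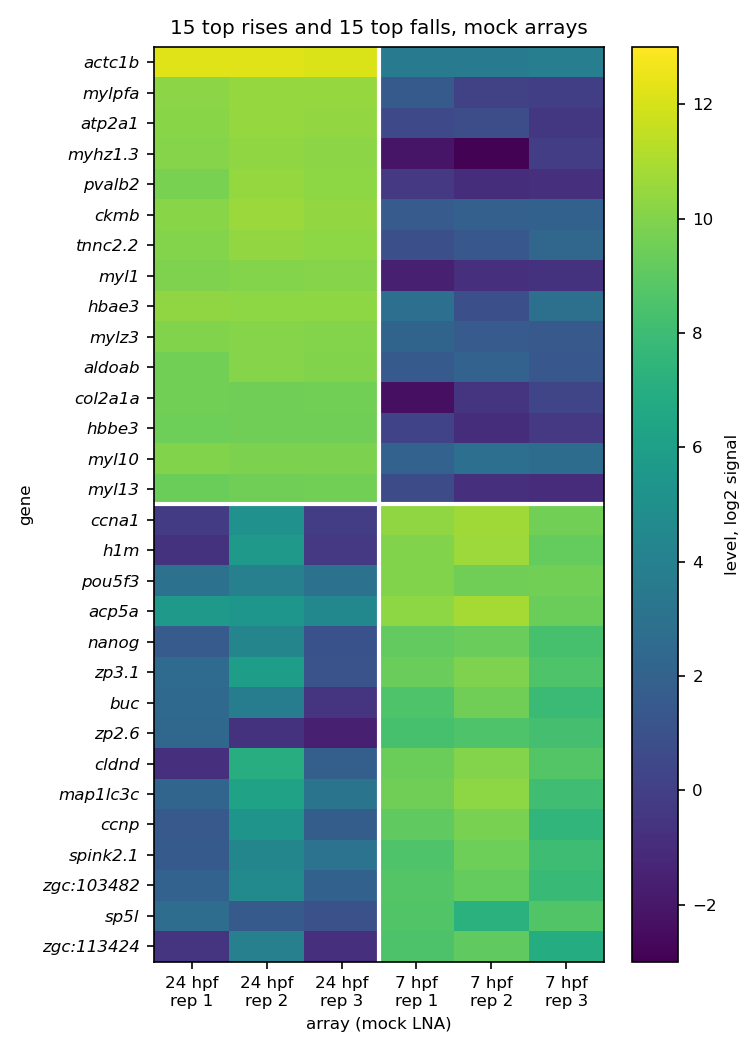
Level (log2 signal, colour scale) on the 6 mock arrays, 24 hpf at left and 7 hpf at right, of the 15 genes with the largest rise and the 15 with the largest fall when 16 was added to the signals. The upper block is mainly muscle and globin genes; in the lower block replicate 2 of 24 hpf is brighter than the other arrays of its age for cldnd, h1m and ccna1.

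Collagens build the matrix of the notochord, the rod that stiffens the early axis, and of other tissues. RNA of whole embryos does not show in which of them a collagen rose. Of 21 collagen genes 15 rose and none fell, with a median of 3.88. The fibrillar collagen col11a1a stood at 8.59, 8.78 and 8.59 on the 24 hpf arrays, against 0.97, -0.03 and 2.60 on the 7 hpf arrays. Its partner col9a2, a collagen of the fibril surface, was at 7.90, 8.13 and 8.01 at 24 hpf, against 2.07, 2.45 and 3.24 at 7 hpf. Collagen I, found in skin and connective tissue, was read from col1a1a, at 9.06, 9.09 and 8.73 at 24 hpf, against 1.10, 1.73 and 1.90 at 7 hpf. The enzyme plod1a, which modifies lysines of new collagen, rose by 3.59.

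Other matrix genes rose with the collagens. Of 20 matrix proteins 11 rose and 2 fell, with a median of 1.79. Osteonectin (sparc), which binds collagen, was at 8.62, 8.77 and 8.46 at 24 hpf, against 2.65, 1.66 and 2.61 at 7 hpf. Decorin (dcn) was at 7.29, 7.27 and 7.23 at 24 hpf, against -0.06, -0.32 and 0.69 at 7 hpf, and periostin (postnb) rose by 6.35 ± 0.41. In the other direction, has2, which makes the hyaluronan through which gastrula cells migrate, fell by 3.44. Of 16 metalloproteases, enzymes that cut matrix or cell surface proteins, 10 rose and none fell, among them mmp2, with 5.51 at 24 hpf and 2.24 at 7 hpf.

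In the notochord and floor plate list 17 of 31 genes rose and 5 fell, with a median of 2.01. The members that rose were structural or signalling genes, such as caveolin (cav1, 7.81 at 24 hpf and 2.99 at 7 hpf) and the secreted signal shha, at 6.18, 6.20 and 6.57 at 24 hpf, against 4.16, 3.29 and 4.33 at 7 hpf. The members that fell were mostly factors that specify the axis: the homeobox gene noto was at 2.04, -1.07 and 2.88 at 24 hpf, against 5.70, 4.89 and 6.68 at 7 hpf, and the forkhead gene foxa3 fell by 2.46. Of 16 genes of the Hedgehog pathway 7 rose and 2 fell. Besides shha those that rose were surface proteins such as cdon (3.73), boc (2.73) and hhip (2.59), among others, while the target gene gli1 had 2.36 at 24 hpf and 1.82 at 7 hpf and did not pass.

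Red blood cell genes were high at 24 hpf. Of 22 genes 13 rose and 4 fell, with a median of 1.88. The embryonic beta globin hbbe2 was at 6.93, 6.67 and 7.17 at 24 hpf, against 0.01, 1.68 and -0.47 at 7 hpf. The anion exchanger of the red cell membrane, slc4a1a, was at 6.76, 7.23 and 7.07 at 24 hpf, against -0.55, 1.13 and 0.90 at 7 hpf. The first enzyme of heme synthesis in red cells, alas2, rose by 4.53 ± 0.50, while uros, a later enzyme of the same path that all cells use, fell by 2.23. White blood cell genes gave fewer calls: 6 of 22 rose and 3 fell, and without both replicates 2 these counts were 3 and 4. The lysozyme gene lyz was at 5.36, 4.79 and 4.15 at 24 hpf, against 1.53, 1.36 and 2.00 at 7 hpf. The peroxidase gene mpx of neutrophils was near 0 at both ages (0.54 at 24 hpf and -0.35 at 7 hpf, adjusted p = 0.373). Of its dimmer probe sets, 1 rose by 2.35, with 0.70 at 24 hpf and -1.65 at 7 hpf, and the others did not pass. The actin-bundling gene lcp1 fell by 3.79 ± 0.67, at 3.71, 3.17 and 2.26 at 24 hpf, against 6.95, 5.93 and 7.63 at 7 hpf.

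For the circulation, 7 of 16 vessel genes rose and 1 fell, and 10 of 20 heart genes rose and 4 fell. The sphingosine receptor s1pr1, which steadies vessel walls, was at 6.60, 6.53 and 6.63 at 24 hpf, against 1.28, 2.07 and 1.99 at 7 hpf. In the same list kdrl rose by 5.27, while tie1 (1.48) did not pass. Another member, egfl6, a secreted protein with EGF domains, rose by 7.36 ± 0.73. In the heart list the myosin light chain gene myl7 rose by 6.56 and hand2 by 2.36, while gata4 (0.98) did not pass. The list also contained factors with opposite changes. The homeobox factor isl1a was at 5.92, 5.30 and 5.11 at 24 hpf, against 0.01, -1.77 and 2.73 at 7 hpf, and tbx2b rose by 3.27, whereas gata6 fell by 3.67 ± 0.67 and the Nodal co-receptor tdgf1 by 3.68 ± 0.38. The cardiac factor nkx2.5 was near 0 at both ages (0.37 at 24 hpf and -0.32 at 7 hpf) and did not pass.

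Nerve cell genes rose across several layers of neuronal identity. Of 43 proneural factors 26 rose and 2 fell, with a median of 1.92. Of 38 genes of axons and the neuronal cytoskeleton 26 rose and 3 fell, with a median of 3.93, and of 30 synaptic genes 14 rose and none fell, with a median of 1.64. The proneural factor ascl1b was at 7.29, 7.65 and 7.22 at 24 hpf, against 1.79, 1.36 and 2.85 at 7 hpf. The zinc finger factor insm1b, expressed as neurons leave the cell cycle, was at 7.73, 7.51 and 7.59 at 24 hpf, against 2.77, 2.61 and 3.45 at 7 hpf. In the axon list, the growth cone gene gap43 was at 6.87, 7.05 and 6.97 at 24 hpf, against 2.30, 2.70 and 2.07 at 7 hpf. The gene dpysl3, which regulates microtubules in growing axons, rose by 4.99 ± 0.57, and the kinesin motor kif5aa by 4.50.

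The synapse list holds genes of transmitter synthesis, storage and release. The SNARE gene snap25a was at 6.66, 6.80 and 7.03 at 24 hpf, against -0.60, 0.99 and 0.61 at 7 hpf. The vesicle protein sv2bb was at 6.07, 6.03 and 6.24 at 24 hpf, against -2.88, -2.03 and -0.80 at 7 hpf. The enzyme of GABA synthesis, gad1b, rose by 2.65 ± 0.55, while th, the enzyme of dopamine synthesis, had 0.77 at 24 hpf and -0.69 at 7 hpf and did not pass. Of 33 transmitter receptor genes 3 rose and 1 fell, and 2 of the 3 were the muscle receptor subunits chrna1 and chrne; the other was the glycine receptor glra4a (4.79). Without both replicates 2, and without replicate 2 of 24 hpf alone, 6 rose. The ubiquitin hydrolase uchl1, listed with axon genes, went the other way, at 4.77, 6.64 and 5.40 at 24 hpf, against 9.20, 9.81 and 8.65 at 7 hpf. Its level at 1 hpf was 10.35, above both later ages.

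Delta-Notch signalling holds back neighbours of newborn neurons. Of 13 genes of the Notch family 8 rose and none fell, with a median of 2.03. The ligand dla was at 8.19, 7.57 and 7.70 at 24 hpf, against 4.99, 3.61 and 5.11 at 7 hpf. Among hairy-related repressors, many of which are Notch targets, 9 of 19 rose and 3 fell. The neural member her4.5 was at 6.10, 6.50 and 6.68 at 24 hpf, against 0.40, -1.16 and -1.65 at 7 hpf, and the 3 that fell were her1 and her7 of the segmentation clock and her5, which is expressed in the gastrula endoderm and midbrain primordium.

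Factors that mark brain regions rose in larger numbers than they fell, with 38 and 6 of 72 genes and a median of 1.60. The POU factors of the neural tube were among the rises, and pou3f3b started from a low level, where sizes are approximate. Its smallest difference under any alternative processing was 2.87, against 3.37 for nr2f2. The gene pou3f3b was at 6.62, 6.85 and 6.56 at 24 hpf, against -2.64, -3.10 and -1.65 at 7 hpf, and pou3f2b rose by 7.28. The orphan nuclear receptor nr2f2 was at 7.59, 7.67 and 7.43 at 24 hpf, against -0.99, 2.58 and 2.53 at 7 hpf. At the midbrain-hindbrain boundary, the homeobox gene en2a rose by 4.58 ± 0.76. The 6 that fell included otx1, with 4.98 at 24 hpf and 7.06 at 7 hpf, and irx7, with 3.02 at 24 hpf and 6.42 at 7 hpf, while otx2b of the fore- and midbrain had 6.01 at 24 hpf and 6.13 at 7 hpf and did not pass.

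Radial glia, the stem cells that line the neural tube, and glia gave 11 rises and no fall among 20 genes, with a median of 2.39. The lipid carrier fabp7a was at 7.63, 8.03 and 8.09 at 24 hpf, against 1.26, 2.01 and 1.14 at 7 hpf. The intermediate filament gene gfap was at 6.68, 6.57 and 6.26 at 24 hpf, against 0.54, 0.56 and -1.94 at 7 hpf. The glutamate transporter slc1a3a rose by 5.10 ± 0.49. The myelin gene mbpa was near 0 at both ages (0.04 at 24 hpf and 0.33 at 7 hpf).

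In the eye, 14 of 32 retina and optic vesicle genes rose and 3 fell, and 6 of 10 lens genes rose. The paired-box factor pax6a was at 6.59, 6.70 and 6.65 at 24 hpf, against 1.08, 0.32 and 1.15 at 7 hpf. The eye gene mab21l1 was at 7.39, 6.94 and 7.18 at 24 hpf, against -0.21, -1.65 and 0.02 at 7 hpf. Of the 3 that fell, six7, a homeobox gene of the early eye field, had 0.11 at 24 hpf and 4.54 at 7 hpf. The beta crystallin cryba4 of the lens rose by 6.96, whereas the alpha crystallin cryaa had -0.37 at 24 hpf and 1.35 at 7 hpf and did not pass (adjusted p = 0.0689). Of 11 crystallin genes 3 rose and none fell, and their median level at 24 hpf was -0.03.

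Neural crest cells leave the neural tube to form pigment cells, nerves and parts of the face. Of 26 neural crest genes 14 rose and 2 fell, with a median of 1.93. The crest transcript crestin was at 7.38, 8.37 and 8.10 at 24 hpf, against 4.21, 2.98 and 4.05 at 7 hpf. The factor sox10 was at 5.89, 5.60 and 5.82 at 24 hpf, against -0.76, 1.06 and 2.19 at 7 hpf. The early crest factors tfap2a (7.24 at 24 hpf and 7.51 at 7 hpf) and foxd3 (6.50 and 5.41) did not pass, and snai1a fell by 2.69. Of 22 pigment cell genes 8 rose and 2 fell. Those that rose included dct, with 7.27 at 24 hpf and 2.43 at 7 hpf, and gch2 (9.29). The enzyme that starts melanin synthesis, tyr, had 0.86 at 24 hpf and 2.37 at 7 hpf and did not pass.

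The Hox genes, which give cells their position along the head-tail axis, rose as a family. Of 42 Hox genes on the array 32 rose and none fell, with a median difference of 3.37 and a median level of 3.88 at 24 hpf and 1.19 at 7 hpf. In the posterior hindbrain acts hoxb3a, at 8.23, 8.51 and 8.27 on the 24 hpf arrays, against 3.88, 3.38 and 4.87 on the 7 hpf arrays. Further back along the axis, hoxb9a rose by 3.80 to a level of 6.13, against 2.32 at 7 hpf. All measured genes of paralogue groups 2, 3, 4, 5 and 10 rose. In groups 1 and 13 each, 1 of 3 genes rose, and the single genes of groups 7 and 12 did not pass. By cluster, 9 of 11 hoxa, 11 of 13 hoxb, 8 of 12 hoxc and 4 of 6 hoxd genes rose. Without both replicates 2, 26 of the 42 genes rose, and leaving out single arrays gave 24 to 31.

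**Figure D3:**
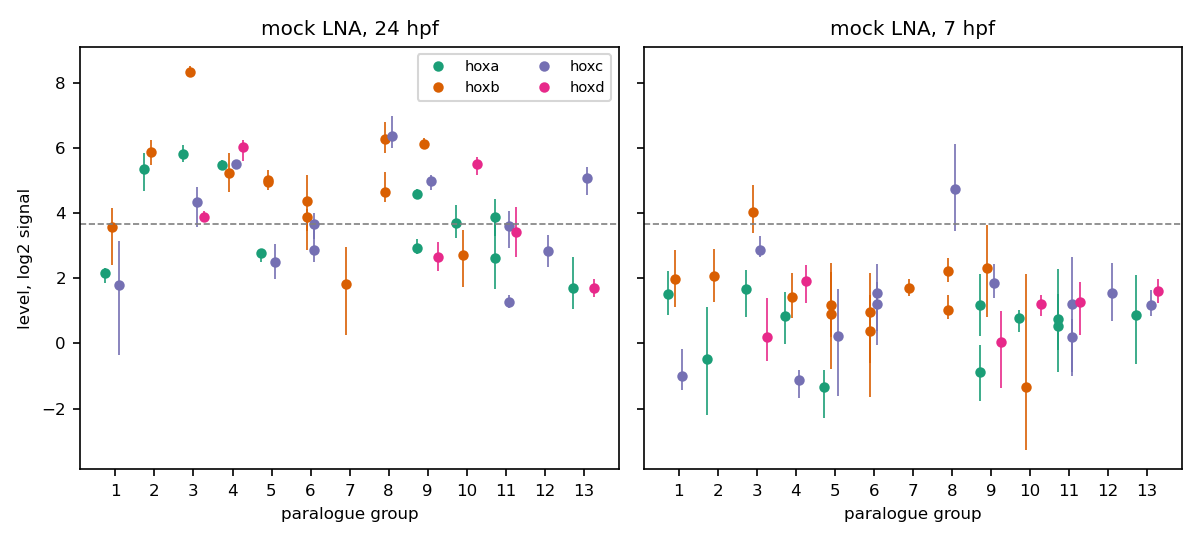
Levels (log2 signal) of the 42 Hox genes by paralogue group in mock LNA embryos of 24 hpf (left) and 7 hpf (right); points are means and lines span the lowest and highest of 3 arrays, coloured by cluster. The dashed line is the array median. At 7 hpf only hoxb3a and hoxc8a have means above it.

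Other families of transcription factors were counted in the same way. Of 8 dlx genes, a homeobox family, 5 rose and none fell, among them dlx5a of the forebrain, arches and fin fold (6.26 at 24 hpf and 1.63 at 7 hpf). Of 18 sox genes 10 rose and 3 fell, and of 25 fox genes 5 rose and 9 fell. The forkhead gene foxd5, active in the early neural plate, was at 2.96, 2.52 and 0.40 at 24 hpf, against 7.26, 5.77 and 7.51 at 7 hpf, while foxn4, which acts in retinal and spinal progenitors, rose by 5.91. Among retinoid genes, cyp26b1, which breaks down retinoic acid in the hindbrain, was at 6.87, 6.71 and 6.49 at 24 hpf, against 1.10, -0.09 and 2.39 at 7 hpf. The enzyme that makes it, aldh1a2, had 6.48 at 24 hpf and 6.19 at 7 hpf and did not pass.

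Genes of gut, liver and pancreas were divided, with 24 of 57 rising and 11 falling and a median of 0.98. Secreted plasma proteins, which the yolk syncytial layer of fish embryos also makes, were among the rises. Retinol binding protein (rbp4) was at 6.51, 5.83 and 6.39 at 24 hpf, against -0.19, 2.05 and 1.51 at 7 hpf. The apolipoprotein apoa2 was at 8.69, 6.56 and 7.95 at 24 hpf, against 4.15, 2.95 and 4.43 at 7 hpf. Of 15 apolipoprotein genes 9 rose and 2 fell, and without replicate 2 of 7 hpf 5 rose. The gene apoeb, which is active in the early yolk syncytial layer, fell by 2.02 ± 0.41. The liver fatty acid binding protein fabp10a (-0.16 at 24 hpf and -0.05 at 7 hpf) and insulin, ins (1.84 and 0.92), did not pass, and the mean of neither gene reached the array median at 24 hpf. A second insulin gene, insb, was at -1.28, -2.19 and -1.30 at 24 hpf, against 4.19, 3.14 and 3.79 at 7 hpf, and fell by 5.30 ± 0.75, or by 0.85 with 16 added. Hormone genes of the pituitary were near 0 at both ages, with prl at 0.97 at 24 hpf and -0.30 at 7 hpf and pomca at -0.83 and -0.21.

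In the kidney list 11 of 25 genes rose and none fell, and without both replicates 2 this was 7. The sodium pump subunit atp1a1a.2 was at 6.68, 6.41 and 6.65 at 24 hpf, against -0.76, -0.83 and 0.69 at 7 hpf. The cadherin cdh17 of the pronephric tubule rose by 3.09 ± 0.57 and podocalyxin (podxl) by 4.62 ± 0.80. The kidney factor wt1a (-0.67) did not pass, and neither did its dimmer probe sets (-1.21 and -0.64). Of 21 genes of sodium, potassium and calcium pumps 11 rose and 4 fell, and of 15 subunits of the proton pump V-ATPase 10 rose and none fell.

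The skin gave both kinds of change. Of 56 genes of the periderm and its forerunner, the enveloping layer, 17 rose and 13 fell, with a median of 0.02. These shares were 30.4% and 23.2%, against 20.5% and 28.4% of all genes. Without replicate 2 of 7 hpf, 14 of the 56 rose and 17 fell, with a median of -0.38. Of 23 genes of basal epidermis and fin fold 13 rose and 4 fell, with a median of 3.33. The basal epidermis factor tp63 (0.38) did not pass, and neither did its dimmer probe set (0.75). Abundant keratins were already high in the gastrula: krt4 stood at 10.82, 11.32 and 11.04 at 24 hpf, against 10.68, 9.48 and 10.81 at 7 hpf (adjusted p = 0.072), and krt5 at 9.81, 9.61 and 9.55 at 24 hpf, against 9.79, 8.95 and 10.41 at 7 hpf (adjusted p = 0.936). Other skin genes appeared later. The calcium-binding gene icn was at 8.78, 8.86 and 9.07 at 24 hpf, against 3.09, 3.46 and 3.93 at 7 hpf. The tight junction gene cldni was at 8.31, 8.61 and 8.41 at 24 hpf, against 1.90, 1.65 and 3.17 at 7 hpf, and s100a10b rose by 6.52 ± 0.64. Those that fell included the tight junction gene oclna, with 6.94 at 24 hpf and 8.75 at 7 hpf, and the cadherin cdh1, which fell by 1.29 ± 0.32. Another that fell, mid1ip1l, did so by 3.63 ± 0.39. Its level was 11.19 at 1 hpf, before the embryo's own transcription.

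Housekeeping machinery did not move as one. Many subunits of the respiratory chain rose, and most were already at or above the array median at 7 hpf. Of 33 genes of complex I of the respiratory chain 29 rose and none fell, with a median of 1.57, of 23 genes of complexes III and IV 14 rose, with a median of 0.78, and of 18 genes of ATP synthase 11 rose, with a median of 1.44. The complex I subunit ndufb10 was at 8.27, 8.22 and 8.26 at 24 hpf, against 5.36, 5.46 and 5.19 at 7 hpf. The ATP synthase subunit atp5pd was at 8.67, 8.82 and 8.95 at 24 hpf, against 6.20, 5.90 and 6.20 at 7 hpf. These subunits were expressed at 1 hpf too, with 6.26 for ndufb10 and 6.94 for atp5pd. Of 35 genes of the citric acid cycle and its feeders 20 rose and 4 fell, with a median of 0.96.

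Of 71 cytosolic ribosomal protein genes 50 rose and none fell, with a median of 0.89; without both replicates 2, 34 rose. The acidic stalk protein rplp2 was at 9.98, 9.78 and 9.89 at 24 hpf, against 8.09, 7.41 and 8.61 at 7 hpf. Of 59 mitochondrial ribosomal protein genes 23 rose and 3 fell, with a median of 0.45. Of 48 proteasome genes 27 rose and 3 fell, with a median of 0.71, among them the core subunit psma1, at 8.21, 8.30 and 8.65 at 24 hpf, against 6.43, 6.24 and 6.86 at 7 hpf.

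Much of the machinery that makes and processes RNA moved in the other direction. Of 64 nucleolar and WD-repeat genes 37 fell and 3 rose, with a median of -0.85, of 73 splicing genes 35 fell and 4 rose, with a median of -0.66, and of 75 genes of RNA polymerases and general transcription factors 33 fell and 1 rose, with a median of -0.57. Of 33 helicases 15 fell and 2 rose. The named genes of these groups fell by sizes that differ widely. Nucleophosmin (npm1a) was at 8.87, 8.78 and 8.90 at 24 hpf, against 10.54, 10.30 and 10.39 at 7 hpf, and fell by 1.56 ± 0.20 (limma adjusted p = 4.29e-06). The splicing protein snrpd3 was at 6.42, 6.75 and 6.78 at 24 hpf, against 8.98, 9.45 and 8.97 at 7 hpf. The TATA-binding protein tbp was at 5.73, 5.93 and 5.62 at 24 hpf, against 8.49, 9.07 and 7.79 at 7 hpf. A larger fall was seen for gtf3ab, a factor of 5S ribosomal RNA synthesis, at 0.47, 4.43 and 1.25 at 24 hpf, against 8.07, 8.81 and 7.93 at 7 hpf; its level at 1 hpf was 9.96. Of 26 hnRNP genes, another RNA-processing family, 8 fell (30.8%) and 4 rose (15.4%), nearer to the shares of all genes (28.4% and 20.5%). Outside RNA processing, of 35 genes of nuclear pores and import 15 fell and 6 rose, and of 145 ubiquitin enzymes 56 fell and 17 rose.

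**Figure D4:**
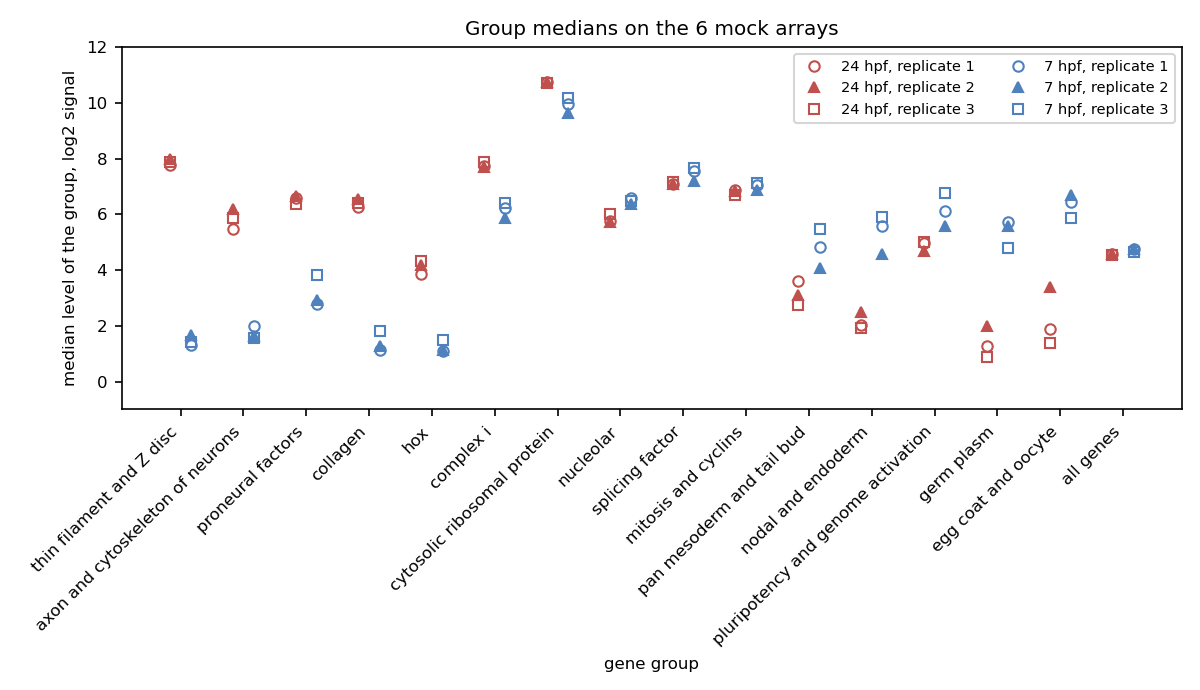
Median level (log2 signal) of 15 gene groups and of all genes on each of the 6 mock arrays, 24 hpf in red and 7 hpf in blue; replicate 2 of each age is a filled triangle. The ages do not overlap for any group shown, though for mitosis and cyclins the gap is small. Replicate 2 of 24 hpf is the highest of its age for egg and germ plasm genes, and replicate 2 of 7 hpf the lowest of its age for Nodal and tail bud genes.

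Cell division genes changed about as often as all genes. Of 66 mitosis and cyclin genes 22 fell and 12 rose, with a median of -0.16, close to the -0.20 of all genes. Without both replicates 2, 17 fell and 7 rose. The A cyclin ccna2 was at 7.59, 7.80 and 7.91 at 24 hpf, against 10.02, 10.48 and 9.23 at 7 hpf, and the B cyclin ccnb1 fell by 1.91 ± 0.32. The kinase cdk1, which these cyclins switch on, was at 7.85, 8.20 and 7.90 at 24 hpf, against 6.96, 6.23 and 7.11 at 7 hpf, and rose by 1.22 ± 0.25. The G1 cyclin ccnd1 was high at both ages (9.11 at 24 hpf and 8.90 at 7 hpf, adjusted p = 0.782). Of 52 replication genes 15 rose and 11 fell, and without both replicates 2 these were 9 and 8; without replicate 3 of 24 hpf, 9 rose. The helicase subunit mcm2 rose by 1.65 ± 0.28, while several genes that load helicases on replication origins fell: orc6 was at 5.10, 5.27 and 5.23 at 24 hpf, against 8.32, 8.64 and 8.18 at 7 hpf, and cdt1 fell by 2.97 ± 0.27 and its inhibitor gmnn by 2.81 ± 0.45.

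Transcripts of the egg were among the largest falls. Of 42 egg coat and oocyte genes 29 fell and 5 rose, with a median of -4.27, and of 25 germ plasm genes 19 fell and none rose, with a median of -4.06. The egg coat gene zp3.1, which is outside these lists and was named for its size, stood at 2.61, 5.89 and 1.10 on the 24 hpf arrays, against 9.37, 9.88 and 8.62 on the 7 hpf arrays, and at a mean of 10.93 at 1 hpf. The gene buc, which organizes the germ plasm of the egg, was at 2.48, 3.71 and -0.58 at 24 hpf, against 8.62, 9.53 and 7.91 at 7 hpf. For btg4, at 10.83 at 1 hpf, levels were -0.88, 5.31 and -0.59 at 24 hpf, against 8.76, 9.16 and 7.02 at 7 hpf. For these genes the ages did not overlap, but replicate 2 was the highest array of 24 hpf. Without both replicates 2, 28 egg genes and 18 germ plasm genes fell.

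Germ plasm RNAs guide the primordial germ cells. The RNA-binding gene dazl was at 1.83, 2.36 and 1.70 at 24 hpf, against 5.77, 6.85 and 5.03 at 7 hpf. The germ cell gene nanos3 was at 2.66, 2.93 and -1.22 at 24 hpf, against 6.43, 7.14 and 5.45 at 7 hpf, and piwil1, of the piRNA pathway, fell by 3.45 ± 0.53. For the survival factor dnd1 the probe sets disagreed: the one with the highest mean had 4.30 at 24 hpf and 5.49 at 7 hpf and did not pass, and a second one had 0.79 at 24 hpf and 5.86 at 7 hpf and fell by 5.07.

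Genes of proteins that act on maternal messages were divided. Of 58 such genes 23 fell and 8 rose, with a median of -0.61. The egg form of the cap-binding protein, eif4e1b, was at 1.97, 2.93 and 1.20 at 24 hpf, against 7.28, 7.68 and 6.93 at 7 hpf. A poly(A)-binding protein of the oocyte, pabpn1l, was at 0.62, 2.69 and 1.39 at 24 hpf, against 7.81, 8.41 and 6.78 at 7 hpf, and the zinc finger gene cth1 fell by 6.24 ± 1.00. General members were high at both ages, such as ybx1 (9.77 at 24 hpf and 9.80 at 7 hpf) and the m6A reader ythdf2 (6.74 and 6.80). The splicing and decay factor celf2, which is expressed in nervous tissue, rose to 7.96, against 2.96 at 7 hpf.

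Other maternal transcripts that fell by much belong to no egg-specific list. The acid phosphatase acp5a was at 5.58, 5.43 and 4.46 at 24 hpf, against 10.29, 10.85 and 9.42 at 7 hpf. The steroid-making enzyme cyp11a1.1 was at 1.26, 1.77 and 0.60 at 24 hpf, against 6.76, 7.54 and 6.80 at 7 hpf. The ubiquitin ligase subunit fbxo32, known from wasting muscle, was at 1.30, 1.43 and 1.90 at 24 hpf, against 6.68, 6.67 and 6.43 at 7 hpf. Their levels at 1 hpf were 11.03, 7.83 and 7.04.

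Genes that pattern the germ layers fell more often than they rose, as did all genes (28.4% fell and 20.5% rose). The share that fell was 70.4% in the Nodal and endoderm list and 51.2% in the mesoderm and tail bud list. In the organizer (36.1%) and ventral (36.8%) lists it was nearer to that of all genes. Of 27 Nodal and endoderm genes 19 fell and 1 rose, with a median of -2.07. The Nodal effector foxh1 was at 0.74, 2.71 and 0.02 at 24 hpf, against 6.38, 6.75 and 6.50 at 7 hpf. The Nodal partner gdf3 was at 1.99, 5.49 and 0.74 at 24 hpf, against 8.14, 8.65 and 7.55 at 7 hpf. The feedback inhibitor lft1 fell by 4.20 ± 0.89. The ligand ndr2 had 0.99 at 24 hpf and 2.78 at 7 hpf and did not pass (adjusted p = 0.0569). The receptor acvr2ba was the 1 member that rose, by 0.84, from its brightest probe set, but a dimmer one fell, and leaving out any of the 6 arrays ended its call.

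On the dorsal side, 13 of 36 organizer genes fell and 6 rose, and without replicate 3 of 7 hpf 8 fell. The BMP inhibitor chrd was at 1.64, 2.05 and 1.63 at 24 hpf, against 6.07, 4.65 and 6.68 at 7 hpf, and the homeobox gene gsc fell by 4.31 ± 0.70. The anti-dorsalizing signal admp was at -0.78, -0.43 and 0.82 at 24 hpf, against 6.04, 4.86 and 6.45 at 7 hpf. Those that rose have later uses in the neural plate or in signalling, such as irx3a (3.93) and six3b (2.04). The call of six3b was lost without both replicates 2, when 2 organizer genes rose. On the ventral side, 14 of 38 genes fell and 4 rose. The repressor ved was at 2.87, 0.03 and 0.10 at 24 hpf, against 8.30, 6.03 and 8.62 at 7 hpf. The BMP regulator szl was at 0.83, 0.03 and -2.06 at 24 hpf, against 6.03, 4.49 and 6.95 at 7 hpf.

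For mesoderm and tail bud, 21 of 41 genes fell and 4 rose, with a median of -1.48. The Wnt target sp5l was at 2.74, 1.56 and 0.98 at 24 hpf, against 8.64, 7.19 and 8.65 at 7 hpf. The caudal factor cdx4 was at 4.61, 4.09 and 2.85 at 24 hpf, against 8.70, 7.42 and 9.14 at 7 hpf. The 4 that rose included the Wnt receptor gene fzd10 (2.46) and the Wnt ligand wnt11, at 5.25, 5.10 and 5.33 at 24 hpf, against -0.78, -0.83 and 0.90 at 7 hpf.

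The list of pluripotency and genome activation includes factors that open the zygotic genome. Of its 43 genes 27 fell and 7 rose, with a median of -1.47. The POU factor pou5f3 was at 2.98, 3.96 and 2.98 at 24 hpf, against 9.96, 9.50 and 9.59 at 7 hpf, and fell by 6.38 ± 0.32 (limma adjusted p = 1.12e-11). Its partner sox19b fell by 1.79 ± 0.34 and kept a level of 5.87 at 24 hpf. Genes of other functions fell too. The ubiquitin-like gene isg15, counted with complement and immunity genes, was at 1.67, 2.69 and 1.17 at 24 hpf, against 5.94, 6.15 and 7.19 at 7 hpf. The small heat shock protein hspb1 fell by 3.22 ± 0.32 but remained at 7.30 at 24 hpf.

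Some related genes moved in opposite directions. Pairs of relatives were compared by their own differences, without a test between the members. Among POU factors pou5f3 fell and pou3f3b rose by 9.14 ± 0.93. Among Elav RNA-binding proteins elavl2 fell by 3.63 ± 0.72 and elavl3 rose by 3.99 ± 0.44, with elavl3 at 5.84, 6.44 and 6.45 at 24 hpf, against 1.82, 2.93 and 2.03 at 7 hpf. Among creatine kinases the brain form ckbb fell by 1.79 ± 0.33 and the muscle form ckma rose by 7.09 ± 0.37. Among SoxB1 factors sox19b fell and sox2 rose by 1.72 ± 0.40. The Snail factors snai1a and snai2 differed by -2.69 and 1.53, but dimmer probe sets of snai2 did not pass (0.53 and 0.48), nor did its mean over probe sets (0.85, adjusted p = 0.132). In other pairs a maternal form fell and its relative fell by less: npm2b fell by 4.91 ± 0.31 and npm1a by 1.56 ± 0.20, and slbp2 fell by 5.79 ± 0.85 and slbp by 1.04. In other pairs still, 1 member was high at both ages: tubulin tubb4b had 9.83 at 24 hpf and 9.50 at 7 hpf and did not pass, with a second probe set that rose by 0.50, while tubb5 rose by 2.99 ± 0.35.

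**Figure D5:**
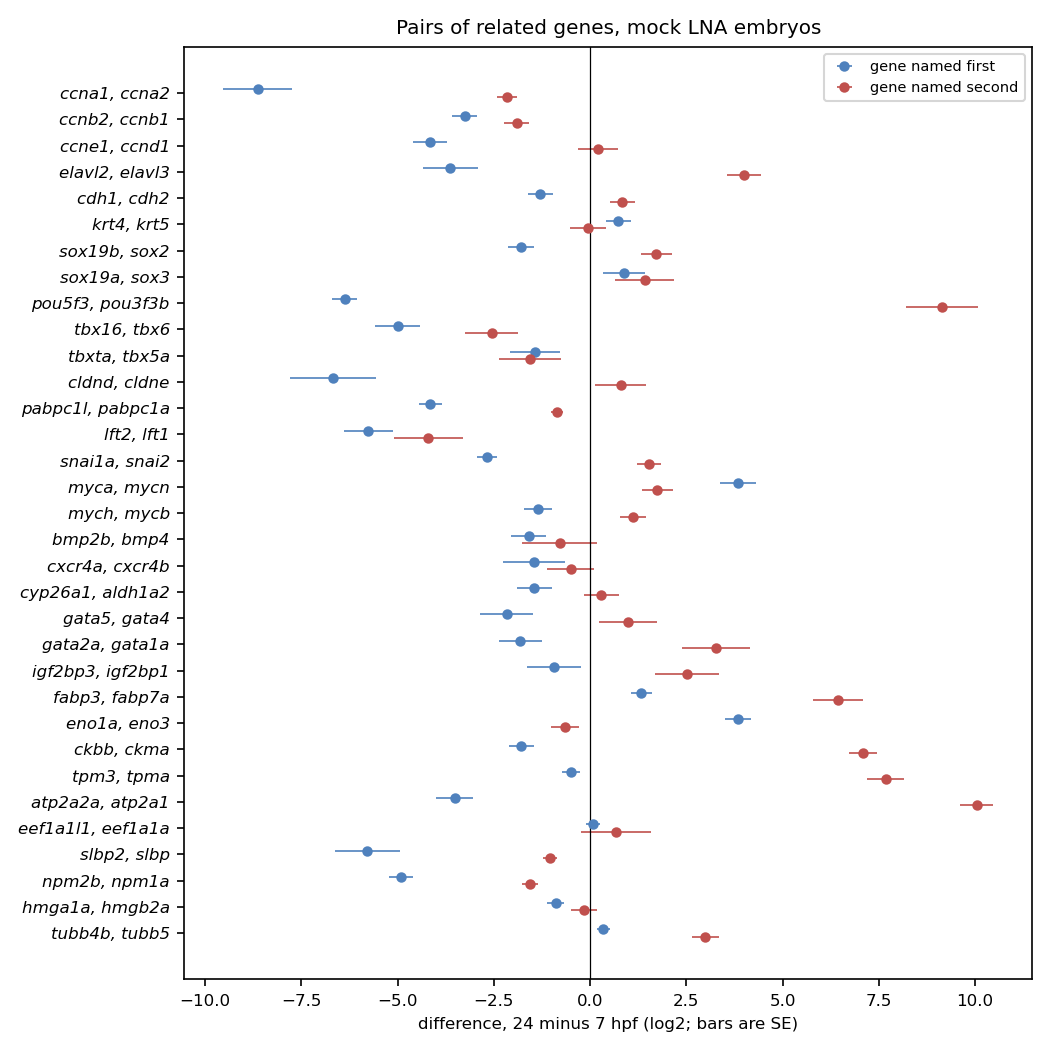
Differences (24 minus 7 hpf, log2) of 33 pairs of related genes in mock LNA embryos, with limma's SE as bars; blue is the gene named first and red the gene named second. For pou5f3 and pou3f3b, elavl2 and elavl3, and ckbb and ckma the points lie on opposite sides of 0.

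The same age step was read in anti-mir-34 LNA embryos, from 3 arrays of 24 hpf and 3 of 7 hpf. None of these arrays enters the mean levels of the mock step. In anti-mir-34 embryos 2551 of 15502 probe sets rose (16.5%) and 3010 fell (19.4%). Of the 6662 mock calls 4473 (67.1%) were called in the same direction, which is 80.4% of the 5561 anti-mir-34 calls. The calls of both steps used a single estimate of each probe set's spread, from all arrays of the study. A probe set with a small spread is thus more readily called in both steps, and the shared calls are not independent. How far this raises the overlap was not tested. Of the mock calls 226 had a difference of the opposite sign in anti-mir-34 embryos, and 4 were called in opposite directions. Of these 4, only the zinc transporter slc30a9 (-0.91 in mock and 0.97 in anti-mir-34 embryos) and the chromatin remodeler chd1l (-1.26 and 1.26) have a gene name, and they were named after their values were seen. Group medians given above were, for example, 6.30 and 6.07 for the thin filament list, 3.37 and 2.75 for Hox genes, 3.88 and 3.72 for collagens, -4.27 and -3.95 for egg genes and -2.07 and -3.16 for Nodal and endoderm genes, in mock and in anti-mir-34 embryos. The sign differed for the myogenic list (0.15 in mock and -0.56 in anti-mir-34 embryos) and the periderm list (0.02 and -0.38), among others.

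The difference between the 2 steps was tested as an interaction. No probe set passed at a limma adjusted p of 0.05 (0 of 15502, 0%). At an unadjusted limma p below 0.05 there were 1333 of 15502, and between 839 and 2060 with single arrays left out. A lack of calls does not show that the steps were equal. The smallest p among genes was that of stra6, the receptor that takes up retinol from its binding protein: its step was -0.04 in mock embryos and 3.09 in anti-mir-34 embryos, a difference of -3.13 ± 0.64 (SE; limma adjusted p = 0.328). The mock level of stra6 was 3.91, 2.50 and 3.75 at 24 hpf, against 3.91, 3.95 and 2.42 at 7 hpf. Another of the 5 genes with the smallest p was fyco1a, an adaptor of vesicle transport, with steps of -3.82 in mock and 0.82 in anti-mir-34 embryos (adjusted p = 0.36). Without mock replicate 3 of 7 hpf, 10 probe sets passed, and without anti-mir-34 replicate 2 of 7 hpf, 1 did.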

How the data were processed

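The values were deposited by the authors as log2 signals of Affymetrix zebrafish arrays, read as log2 from their range (-3.32 to 12.27). Per the submitters' processing notes GCOS was used; how probes were summarised and normalized is not stated there. The arrays share nearly 1 distribution (largest gap at the same rank 0.047), so differences are relative within an array. Of 15502 probe sets that are not controls, 10795 had 1 symbol, 135 several and 4572 none; 10711 matched RefSeq's gene table by Entrez number. The brightest probe set stood for each of 8793 genes, 1539 of which have several. In the 6 arrays 23 values were missing and were left out.

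Limma 3.58.1 in R 4.3.3 was fitted to all 18 arrays, with 1 mean per group (12 residual degrees of freedom), eBayes with an intensity trend and Benjamini-Hochberg adjustment over 15502 probe sets. Replicates are labelled biological, so p-values measure the spread between these samples. With no count behind an array, precision is limited by the number of arrays. The script was tested on simulated data. The 42 lists, 78 families and 33 pairs were chosen with earlier results of these data known, and share genes. Named genes were the 15 largest rises and 15 largest falls with 16 added, fixed anchor genes and pairs, up to 4 called members of a group in its main direction and 2 in the other, and the 5 smallest p of the interaction. Same-numbered replicates of the 2 ages were not paired by the labels. Some results are not reported here.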

Additional observations from a re-analysis of the deposited data

How the results depend on the processing

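The number of probe sets called between 24 and 7 hpf was 6662. It lay between 5552 (without mock 7 hpf replicate 2) and 6467 (without mock 7 hpf replicate 3) when single arrays were left out, and was 4916 without both replicates 2. With 16 added to the signals it was 6839, with quantile normalization 6653, from the 6 arrays alone 6250 and without an intensity trend 6413. Restricted to the 7751 brighter probe sets it was 4350, of which 38.3% rose, against 45.4% of the main calls; fewer probe sets were tested there. With the replicate number as a block 6525 were called. The deviations of same-numbered arrays had correlations of -0.00, 0.08 and 0.02, against -0.09 to 0.07 for arrays of different numbers. These small values show no pairing by number, but they cannot exclude that same-numbered arrays share an origin. The interaction gave 0 probe sets in the main fit and also with the replicate block, 1 among the brighter probe sets, and between 0 and 10 with single arrays left out. Of the 2904 genes in any list or family 1568 were called, with a range from 1387 to 1542 when single arrays were left out. Of 623 called genes chosen by the naming rule, 515 kept their call under every alternative they had a value in and 68 lost it without both replicates 2. With the mean of all probe sets of a gene the sign turned for celf1 (-0.69), kif1b (-0.46), hnrnpa0b (0.74) and pabpc1a (0.37). Of the group counts under an alternative, 1565 stayed within 1.5 times and 115 did not, 66 of these among the brighter probe sets. No detection calls were used, so signal over background limits the size of a difference from a low level.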

Other observations

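Further gene groups were counted outside the main accounts. Of 36 genes of vesicle coats 7 rose and 5 fell, with a median of -0.11. Of 48 cytochrome P450 genes 3 rose and 9 fell, with a median level of 1.14 at 24 hpf and 1.40 at 7 hpf, so most were dim at both ages. Of 25 complement and immunity genes 3 rose, 1 fell and 21 did not pass. Of 134 solute carriers 25 rose and 47 fell. The mitochondrial ADP/ATP carrier slc25a4 was at 6.25, 7.89 and 7.64 at 24 hpf, against 1.66, 1.49 and -0.54 at 7 hpf. The lactate carrier slc16a3b fell by 4.29.

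Some single genes changed by much. The cytochrome oxidase subunit cox6b1 was at 5.15, 6.70 and 6.48 at 24 hpf, against 0.06, -1.16 and 1.36 at 7 hpf, a rise of 6.02 ± 0.85, or of 2.32 with 16 added. The S100 gene s100a1 was at 1.57, 2.71 and 2.01 at 24 hpf, against 8.41, 8.32 and 7.27 at 7 hpf, in a group of 22 genes of which 10 rose and 4 fell. The SNARE gene stx8 fell by 4.81 ± 0.55, and its family of 26 genes had 6 rises and 8 falls. The chemokine gene cxcl14 was at 7.20, 7.04 and 7.03 at 24 hpf, against 1.49, 1.89 and 2.18 at 7 hpf, while the chemokine receptors cxcr4a (4.67 at 24 hpf and 6.12 at 7 hpf) and cxcr4b (3.13 and 3.64) did not pass.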
